A study of Bos taurus with 18 samples.

Results

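Leukocyte transcriptomes of 6 Droughtmaster and 6 Red Angus cattle were compared, 12 of the 18 libraries in the series. The libraries were chosen by their breed label and not by any measured value. All 12 animals were female, and every library carries the labels leukocytes, blood and heat stress, so the breeds are compared within a single condition. No unstressed animal was analysed here, and the remaining 6 libraries, from hybrids of these breeds, were not part of the comparison. Age, herd, temperature and sampling date were not given in the sources used here. Each library came from its own animal name, and nothing in the labels pairs animals across breeds.

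Red Angus is a beef breed of Bos taurus origin. Droughtmaster is a composite bred for the tropics from Bos indicus and Bos taurus stock, and cattle with Bos indicus ancestry are known for tolerating heat better than purely Bos taurus breeds. The white cell layer of blood is a mixture of neutrophils, lymphocytes, monocytes and rarer cells, each with its own set of abundant transcripts. In such a mixture, fewer cells of a type and less RNA per cell cannot be told apart. The count table gives Ensembl identifiers without symbols, and 0 of its 27607 identifiers matched the RefSeq table for ARS-UCD2.0. The labelled cell type could therefore not be checked against its markers, and the functions of the genes below are not known here.

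The libraries held 11639027 to 18551945 counts in Droughtmaster and 16459262 to 24117615 in Red Angus. Ensembl genes with at least 1 count numbered 15499 to 17539 in Droughtmaster and 14383 to 17115 in Red Angus, so the breeds overlapped. The library of Droughtmaster replicate 3 was dominated by 1 row. In this animal, D6020, the row ENSBTAG00000037644 took 44.6% of all counts, which left 9341484 counts for every other row. The same row took 0.0938% to 0.245% of the other Droughtmaster libraries and 0.0173% to 0.214% of the Red Angus libraries. Results that rest on this library are given with and without it. A second library, Red Angus replicate 5 (animal A524), lay nearer the Droughtmaster mean than its own breed's in most of the genes that separated the other 11 animals, and results without it are given as well.

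The number of genes that differed between the breeds was small in the test used here and larger in other tests given below. Of 12953 Ensembl genes tested, 53 differed between Droughtmaster and Red Angus (0.409%) in edgeR's quasi-likelihood test at an adjusted p under 0.05. Of these, 27 were higher in Droughtmaster (0.208%) and 26 were lower (0.201%). All 53 changed at least 2-fold. The median log2 fold change was 2.52 among the higher genes, from 1.29 to 8.45, and -1.76 among the lower genes, from -3.13 to -1.13. Over all genes tested the median log2 fold change was -0.0245. TMM scaling tends to hold this value near 0, but it was also small, at 0.0234, with library totals without TMM. The numbers of higher and lower genes were less even in some alternatives, at 380 and 194 without Red Angus replicate 5, 47 and 18 without Droughtmaster replicate 4, and 10 and 5 without TMM scaling, an alternative chosen after seeing the data.

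The genes higher and lower in Droughtmaster differed in level, in opposite order in Red Angus and in Droughtmaster. Abundance is given as CPM, the count scaled to a library size of 1000000 after TMM scaling. The 27 higher genes had a median level of 6.57 CPM in Red Angus and 33 CPM in Droughtmaster. The 26 lower genes had a median level of 78.7 CPM in Red Angus and 19 CPM in Droughtmaster. The genes were sorted by direction with the same libraries, so this contrast within a breed follows in part from that sorting. None of the 664 tested genes with a mean under 1 CPM was called. The called genes were otherwise spread over the range of abundance, with 14 of 4303 genes (0.325%) between 1 and 10 CPM, 31 of 6325 (0.49%) between 10 and 100 CPM, and 8 of 1661 (0.482%) at or above 100 CPM.

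In most of the called genes the animals of one breed did not overlap those of the other. This held for 21 of the 27 higher genes and for 24 of the 26 lower genes. The same libraries made the calls, so this describes the called genes and adds no support to them. Across all tested genes, 211 had libraries that did not overlap between the breeds (1.63%), 102 of them higher in Droughtmaster (0.787%) and 109 lower (0.842%). The lower genes had smaller SDs within breeds than the higher ones. Genes were called by setting their change against this same spread, and the lower genes had the smaller changes. The contrast in SD is therefore not a separate finding. Their median SD was 0.454 log2 CPM in Droughtmaster and 0.429 in Red Angus, against 0.888 and 0.687 for the higher genes (n = 6 each). Over all tested genes the Red Angus libraries varied more, with a median SD of 0.719 log2 CPM against 0.567. Droughtmaster had the larger SD in 31.6% of genes. The Red Angus values include replicate 5, and its part in this spread was not tested. Among the 27 higher genes Droughtmaster had the larger SD in 18.

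**Figure D1:**
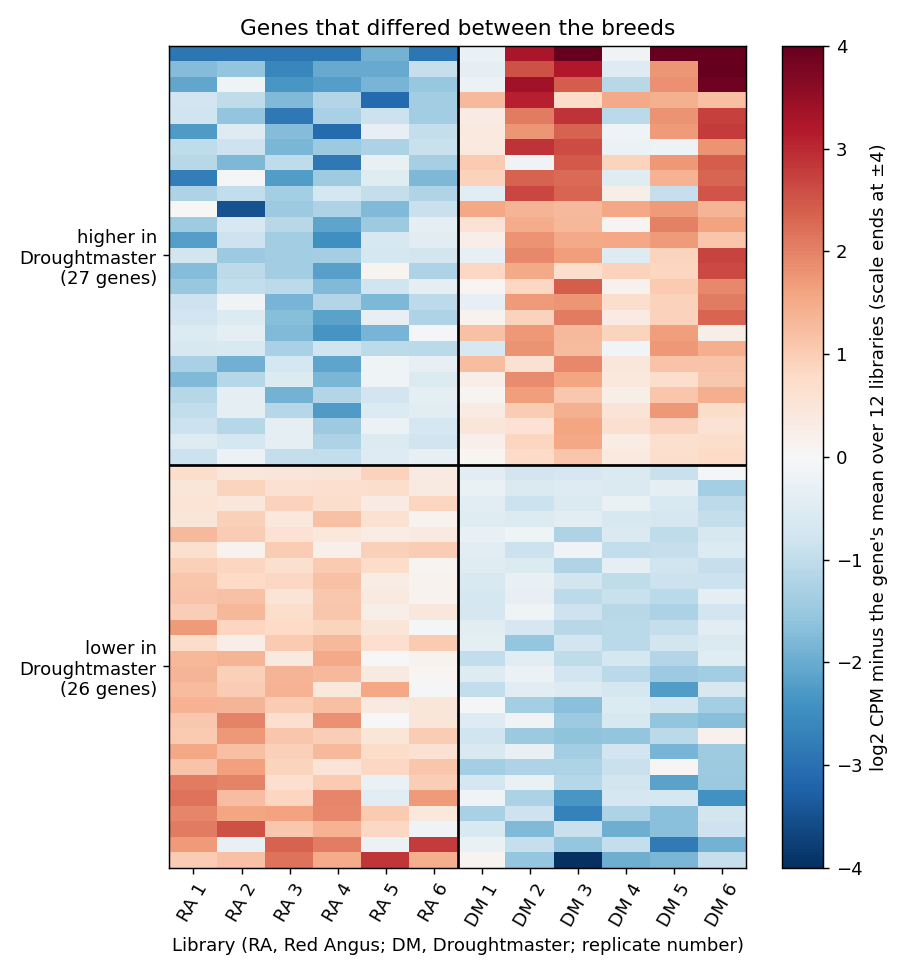
Each row is 1 of the 53 genes called between the breeds and each column 1 library; colour gives log2 CPM minus the gene's mean over the 12 libraries. The 27 genes higher in Droughtmaster are palest in Droughtmaster replicates 1 and 4, while the 26 lower genes are more even within each breed.

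The Droughtmaster animals did not contribute equally to the higher genes. On a scale where 0 is the mean of Red Angus and 1 the mean of Droughtmaster in log2 CPM, Droughtmaster replicates 1 and 4 had median positions of 0.633 and 0.652 over the 27 higher genes. Replicates 2, 3, 5 and 6 lay at 1.18, 1.29, 1.04 and 1.29. Replicate 1 was the lowest of its breed in 12 of the 27 genes and replicate 4 in 9. Over the 26 lower genes the same 2 animals lay at 0.835 and 0.96, closer to the others, which ranged from 0.907 to 1.13. These positions describe genes that were called with the same libraries, so they show how the animals share the difference and do not test it.

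ENSBTAG00000010273 was the gene with the largest change among called genes of at least 5 CPM on average. It had 0 counts in 5 Red Angus libraries and 3 counts in Red Angus replicate 5 (0.103 CPM). In Droughtmaster replicates 1 to 6 it measured 0.549, 7.47, 13.8, 0.602, 23.2 and 16.6 CPM. Every Droughtmaster animal was above every Red Angus animal, and replicates 1 and 4 formed a low pair within their breed. The breeds together held 1134 counts in Droughtmaster and 3 in Red Angus, a ratio of 445 after scaling, with an exact 95% interval of 152 to 2160 that covers counting error only. The fitted log2 fold change was 8.45 ± 1.18 (SE; adjusted p = 0.0195), which depends on those 3 counts.

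ENSBTAG00000013125 was present in every library, at a higher level. In Droughtmaster replicates 1 to 6 it measured 16.6, 129, 202, 15.2, 75.1 and 436 CPM. In Red Angus replicates 1 to 6 it measured 6.48, 7.29, 3.49, 5.31, 5.38 and 11.5 CPM. The Red Angus animals were all under the lowest Droughtmaster animal, and replicates 1 and 4 were again the low Droughtmaster pair. The means were 145.6 ± 159.0 and 6.57 ± 2.73 CPM (SD, n = 6 each), and the log2 fold change was 4.47 ± 0.74 (SE; adjusted p = 0.0307). In limma-voom with sample quality weights the log2 fold change was 2.46 for this gene (adjusted p = 0.132). It was 6.16 for ENSBTAG00000010273 (adjusted p = 0.058), so both were smaller and neither was called. That fit gave weights of 2.49 and 2.58 to Droughtmaster replicates 1 and 4, the low pair. The other Droughtmaster libraries had weights of 0.724 to 1.1, and the Red Angus libraries 0.421 to 2.25. The part of these weights in the smaller changes was not tested.

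Among called genes averaging at least 5 CPM, ENSBTAG00000019406 had the largest decrease in Droughtmaster. In Droughtmaster replicates 1 to 6 it measured 4.02, 1.22, 0.136, 0.881, 0.971 and 1.94 CPM. In Red Angus it measured 7.69, 8.56, 17.3, 10.6, 27.5 and 10.4 CPM. The breeds did not overlap, with Red Angus replicate 5 the highest and Droughtmaster replicate 3 the lowest. The log2 fold change was -3.13 ± 0.57 (SE; adjusted p = 0.0307).

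ENSBTAG00000003152 showed a weaker separation of animals for a similar change. In Red Angus replicates 1 to 6 it measured 75.6, 19.0, 120, 96.4, 19.5 and 160 CPM. In Droughtmaster it measured 19.2, 12.2, 7.76, 12, 3.18 and 6.19 CPM. The breeds overlapped: Droughtmaster replicate 1 lay between Red Angus replicates 2 and 5. The log2 fold change was -3.02 ± 0.56 (SE; adjusted p = 0.0307).

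**Figure D2:**
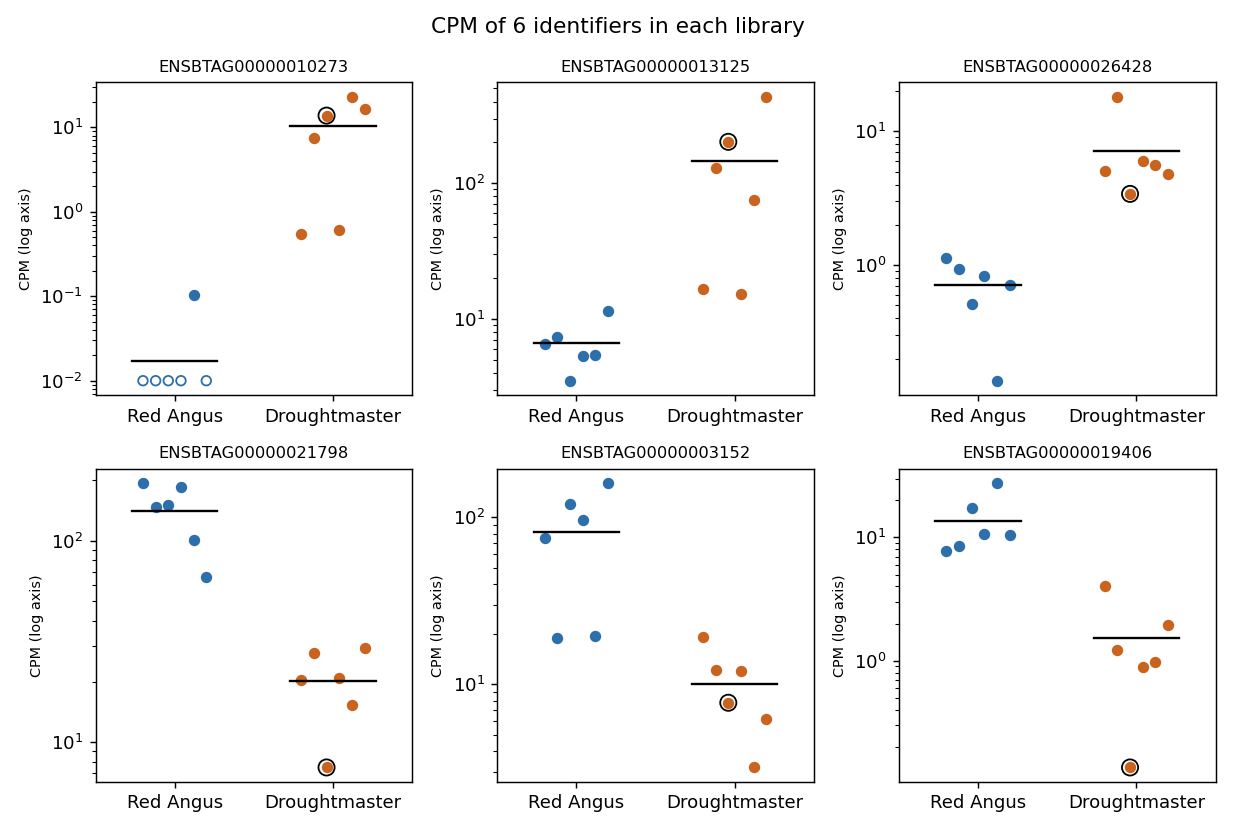
CPM of 6 genes in each library on a log axis, with Red Angus in blue, Droughtmaster in orange, black lines for the means of 6 animals, a black ring around Droughtmaster replicate 3, and open circles at the bottom for libraries with 0 counts. ENSBTAG00000003152 is the only 1 of the 6 in which the breeds overlap.

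Without Droughtmaster replicate 3, 3 of 13220 Ensembl genes were called (0.0227%), and all 3 were among the 53. They are named because they are the only ones, a choice made after their values were seen. ENSBTAG00000021798 had the smallest p of all genes in the full comparison. It measured 193, 148, 151, 186, 101 and 66.0 CPM in Red Angus replicates 1 to 6. It measured 20.3, 27.8, 7.49, 20.9, 15.3 and 29.5 CPM in Droughtmaster. The lowest Red Angus animal was above the highest Droughtmaster animal, and Droughtmaster replicate 3 was the lowest of all. The log2 fold change was -2.80 ± 0.36 (SE; adjusted p = 0.0145), and -2.56 ± 0.32 (adjusted p = 0.0193) without that library.

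ENSBTAG00000026428 measured 5.06, 18.2, 3.41, 5.98, 5.61 and 4.76 CPM in Droughtmaster replicates 1 to 6 and 0.137 to 1.14 CPM in Red Angus. Here Droughtmaster replicate 3 was the lowest of its breed, and without it the log2 fold change moved from 3.34 ± 0.54 (SE; adjusted p = 0.0307) to 3.55 ± 0.53 (adjusted p = 0.0478). The third gene, ENSBTAG00000010273, had a log2 fold change of 8.41 ± 1.24 without that library (adjusted p = 0.0478). The row that dominated replicate 3, ENSBTAG00000037644, was not called between the breeds in either fit. Its log2 fold change was 7.17 ± 2.08 with the library (adjusted p = 0.115) and 0.19 ± 0.64 without it (adjusted p = 0.934).

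The 50 genes that lost their call without Droughtmaster replicate 3 did so with little change in size. All 53 kept their direction, and no gene moved by more than 0.299. The median log2 fold change was 2.57 for the higher genes and -1.69 for the lower ones. Most changes became smaller: the size was larger without the library in 10 of the 27 higher genes and 2 of the 26 lower genes. The remaining libraries had also served to choose these genes, so the kept direction is not a test of them. Their adjusted p lay between 0.0193 and 0.114 without the library, and 51 of the 53 were under 0.1. At that wider threshold, chosen after seeing the data, 310 genes were called with all 12 libraries (2.39%) and 78 without replicate 3 (0.59%). Genes with an unadjusted p under 0.05 numbered 2119 with all libraries (16.4% of those tested), 1026 higher and 1093 lower. Without replicate 3 they numbered 1576 (11.9%).

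Among the very large increases, a part rested on that library. A total of 76 genes were at least 8-fold higher in Droughtmaster, and 6 of them were called. Replicate 3 was the highest of all 12 libraries in 37 of the 76. Without it 38 were still 8-fold higher and 30 fell under 2-fold. In the other direction 14 genes were at least 8-fold lower, 2 of them called, and 10 were still 8-fold lower without replicate 3.

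**Figure D3:**
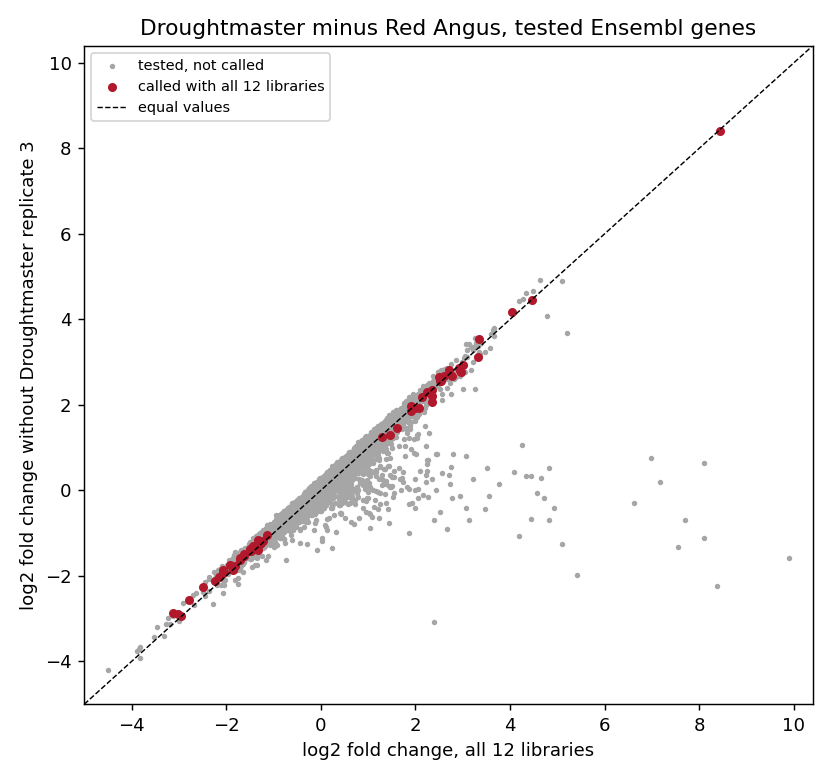
Log2 fold change of each tested Ensembl gene, Droughtmaster minus Red Angus, with all 12 libraries on the horizontal axis and without Droughtmaster replicate 3 on the vertical axis; red points are the 53 called genes and the dashed line marks equal values. The red points stay within 0.299 of the line, while a group of grey points with large values on the horizontal axis falls towards 0 on the vertical axis.

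Droughtmaster replicate 3 was not the only animal on which the count rested. Leaving out Red Angus replicates 1, 3 and 4 gave 2, 1 and 4 genes, and leaving out Droughtmaster replicates 2, 5 and 6 gave 13, 10 and 8. Without Red Angus replicate 6 there were 23, without Red Angus replicate 2 there were 67, and without Droughtmaster replicates 4 and 1 there were 65 and 104. In each of the 12 omissions all 53 genes kept their direction. The genes were chosen with these same libraries, so the kept direction follows largely from that choice and does not test them. The median adjusted p of the 53 genes moved between 0.0187 and 0.078, on both sides of the threshold. ENSBTAG00000021798 was called in all 12 omissions, with an adjusted p from 0.00763 to 0.0499, and was the only gene to be so. ENSBTAG00000010273 was called in 10 omissions (adjusted p from 0.00746 to 0.062), ENSBTAG00000026428 in 9 (0.0165 to 0.0749), ENSBTAG00000013125 in 8, and ENSBTAG00000019406 and ENSBTAG00000003152 in 4 each. Of the 53 genes, 44 were called in 5 omissions or fewer.

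Red Angus replicate 5 had the opposite effect. Without it 574 of 13069 genes were called (4.39%), 380 higher and 194 lower in Droughtmaster, and these included all 53. The omitted animal took no part in choosing those genes. It was singled out, however, because its omission raised the count from 53 to 574, a rise that depends on its own values. Its place in these genes therefore describes the animal and is not a separate test. Over the 567 of the 574 genes with a value in the full comparison, it lay nearer the Droughtmaster mean than the mean of the other 5 Red Angus animals in 415, and within the range of the Droughtmaster animals in 321. Its median position was 0.825, where 0 is the mean of the other Red Angus animals and 1 the Droughtmaster mean. Among the genes higher in Droughtmaster it was nearer its own breed in 92 of 374, and among the lower ones in 60 of 193.

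The place of the same animal varied among the named genes, which were called with it included. ENSBTAG00000021798 measured 101 CPM in it, above the highest Droughtmaster animal at 29.5 CPM, and ENSBTAG00000026428 measured 0.137 CPM, the lowest of all 12. ENSBTAG00000003152, however, measured 19.5 CPM, next to Droughtmaster replicate 1 at 19.2 CPM, and ENSBTAG00000010273 had counts in no other Red Angus animal. Its library also lay beside Droughtmaster replicate 6 in 2 library measures. It had 17115 Ensembl genes with counts and a TMM factor of 1.49, against 17539 and 1.5 in that animal, 14383 to 15870 and 0.764 to 1.06 in the other Red Angus libraries, and 15499 to 16598 and 0.437 to 1.22 in the other Droughtmaster libraries. The part of these library measures in its position was not tested.

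The same measurement was made in the other animals, but the number of genes it could use depended on which animal was omitted. Over the 64 genes called without Red Angus replicate 2 that had a value, that animal lay nearer its own breed in 45 (70.3%). For Red Angus replicate 6 it was 15 of 22 (68.2%). Droughtmaster replicate 1 lay nearer its own breed in 54 of 100 genes and replicate 4 in 35 of 64 (54.7%), with median positions of 0.512 and 0.564, about midway between the breeds. For the other 7 libraries the genes called without them numbered 13 or fewer. Droughtmaster replicates 2, 5 and 6 lay nearer their own breed in 10 of 13, 6 of 9 and 6 of 8 genes. Red Angus replicates 1, 3 and 4 did so in 1 of 2, 1 of 1 and 4 of 4. Droughtmaster replicate 3 lay nearer its own breed in each of the 3 genes called without it, at a median position of 1.33. The larger gene sets came mostly from animals whose omission raised the count above 53. It rose to 67 without Red Angus replicate 2, and to 104 and 65 without Droughtmaster replicates 1 and 4. The shares in these animals need not hold for the others, so they do not measure how far the breed difference carries over in general.

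**Figure D4:**
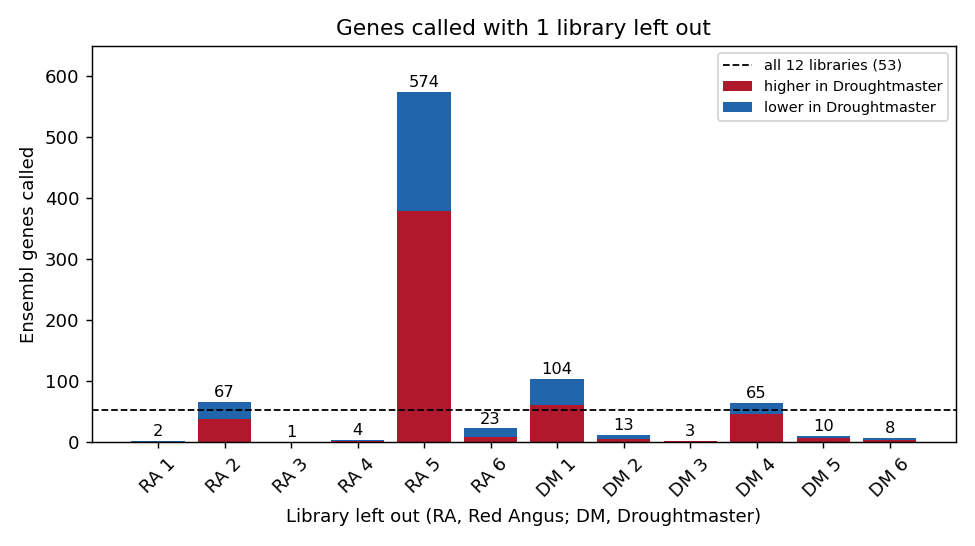
Number of Ensembl genes called when each library was left out, split into genes higher (red) and lower (blue) in Droughtmaster, with a dashed line at the 53 called with all 12. The count ran from 1 without Red Angus replicate 3 to 574 without Red Angus replicate 5.

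**Figure D5:**
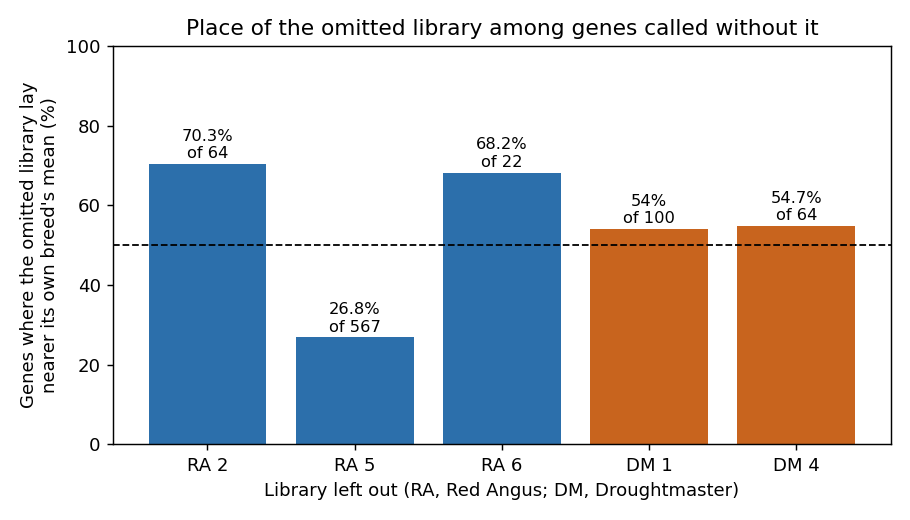
For the 5 libraries whose omission left 20 or more called genes, bars give the percentage of those genes in which the omitted library lay nearer the mean of its own breed; blue is Red Angus, orange Droughtmaster, and the dashed line marks 50%. Red Angus replicate 5 is the only 1 under the line, at 26.8% of 567 genes. Omitting Red Angus replicates 2 and 5 or Droughtmaster replicates 1 and 4 raised the count above 53, so the libraries shown do not stand for all animals.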

How the data were processed

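Per the labels' protocols, leukocytes were taken from EDTA blood and their RNA was sequenced on an Illumina NovaSeq. Raw counts per gene were deposited by the authors. The submitters' processing notes list DESeq2 1.16.1, HISAT2 2.0.5 and featureCounts 1.5.0-p3. Whether counting used strand is not given in the sources used here. Whether reads of overlapping genes were told apart is therefore not known, and near-identical copies could not be assessed without names.

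The 12 libraries of both breeds were fitted in edgeR 4.0.16 (R 4.3.3) with TMM scaling and filterByExpr by breed. All 13844 features that passed were tested with the robust quasi-likelihood F test, two-sided, with Benjamini-Hochberg adjustment over all of them. The text reports the Ensembl rows. A gene is called at an adjusted p under 0.05. Log2 CPM used a prior count of 2. The p-values set the breed difference against the spread between these animals within breeds. The labels do not say whether animals share a herd or day. A herd or day that differed between the breeds could not be told apart from breed. Between any 2 of the 12 libraries the chi-square of the counts per degree of freedom was at least 68.87, so none agreed within sampling noise.

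Genes were to be named by symbol. Without symbols, the fallback rule was used: the 2 largest changes in each direction among called genes averaging 5 CPM or more. The 33 gene lists had 0 matched members and could not be used. The comparison, lists and rules were chosen with earlier results of these data known. Alternatives were limma-voom (limma 3.58.1), DESeq2 1.42.0, other scalings, filters and thresholds, and omission of each library. The scripts were checked on simulated counts.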

Additional observations from a re-analysis of the deposited data

Results flagged for a closer look

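Each set of 6 animals was searched for a highest or lowest animal far from the rest. Of 22 such sets, 4 held one. For normally distributed values chance gives about 1 in 20, and that form was not checked here. A set with 5 animals at 0 counts is marked by any count in the last animal. The sets are also not independent, since both measures of Droughtmaster replicate 3 below share the same row. In Droughtmaster replicate 3, ENSBTAG00000037644 took 44.6% of counts and the 10 most abundant Ensembl rows took 59.5% of the Ensembl counts, against 6.37% to 9.01% in the other Droughtmaster libraries. With that row set aside the 10 most abundant rows still took 27.3% of the Ensembl counts of replicate 3. ENSBTAG00000026428 measured 18.2 CPM in Droughtmaster replicate 2, far above the other 5 animals of its breed. ENSBTAG00000010273 measured 0.103 CPM in Red Angus replicate 5, the only animal of its breed with any count.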

How the results depend on the processing

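Against 53 called genes, 27 higher and 26 lower in Droughtmaster, omission of each library gave 1 to 574 genes, 0 to 380 higher and 1 to 194 lower. A fit of all 18 libraries gave 348 (191 and 157), the DESeq2 Wald test 651 (370 and 281) and limma-voom with sample quality weights 186 (93 and 93). The first 2 included all 53 genes and the last 40 of them. Each of these alternatives kept the direction of the 53, but they draw on the libraries that chose these genes, so this is no separate test. Without a filter on low counts 47 were higher. At an adjusted p under 0.01 edgeR called 0 genes, with 0 in each direction, beside 2119 at an unadjusted p under 0.05, while DESeq2 called 288 and limma-voom 9. Chosen after seeing the data, library totals without TMM gave 15 (10 and 5, so 66.7% higher against 50.9%), an adjusted p under 0.1 gave 310 (176 and 134), and that threshold without Droughtmaster replicate 3 gave 51 higher genes. The unfiltered fit had 61.8% higher calls. The cause of these shifts was not tested.

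No named gene changed sign under any alternative that gave a value for it. All but ENSBTAG00000037644 were named because they were called with these libraries, so this is no separate test. For ENSBTAG00000037644 no value was recorded from the DESeq2 Wald test or from the fit without that row. Under limma-voom ENSBTAG00000010273 (log2 fold change 6.16, adjusted p = 0.058) and ENSBTAG00000013125 (2.46, 0.132) had smaller changes and were not called, and without TMM ENSBTAG00000019406 (0.0646) was not. In the 18-library fit ENSBTAG00000037644 had an adjusted p of 0.0497. Levels of marker lists per library and list counts were not run, since no list had a matched member. No paired analysis was possible because the labels give no numbers shared between the breeds. Counts near 0, as for ENSBTAG00000010273 in Red Angus, limit the precision of its change.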
